A study of Mus musculus with 9 samples.

Results

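The ATF4 stress and amino acid genes are 42 genes out of 37022 genes with a row in the deposited tables. They were chosen by symbol from knowledge of the ATF4 pathway, with earlier results of these data known. They comprise 8 stress transcription factors, 7 stress effectors, 7 serine and one-carbon enzymes, 5 other amino acid enzymes, 9 amino acid transporters and 6 cytosolic tRNA synthetases. ATF4 is the transcription factor of the integrated stress response. When a stress kinase phosphorylates the initiation factor eIF2, general translation falls while translation of Atf4 mRNA increases, and ATF4 then activates genes for amino acid uptake, amino acid synthesis and tRNA charging together with regulators such as DDIT3 and TRIB3. In T cells this programme is known for supplying amino acids after activation. Much of ATF4 control is translational, which a measurement of new RNA does not see.

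Nascent RNA of mouse CD8+ T cells was captured after 30 minutes with 0.2 mM 5-ethynyl uridine, an analogue of uridine that labels RNA made during that time. The 9 libraries form 3 groups of 3: acute stimulation (Acute), chronic stimulation (Chronic), and chronic stimulation with an inhibitor of the kinase MEK (ChronicMEKi, called MEK-inhibited here). The question is how new transcription differs in exhausted T cells, which lose function under continued stimulation, and how inhibiting MEK alters it. Strain, manner and duration of stimulation, and the inhibitor with its dose are not given in the labels, and the protocol's actinomycin D control is not among these libraries. Since nothing says that the libraries come from separate animals, p-values measure the spread between these libraries, which may be technical.

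Gene-body signal over 1 row per gene summed to between 48601757 and 52216192 per library, and depth in reads is unknown. All 8 T cell and CD8 markers passed the filter, whereas Ms4a1, Lyz2, Cd14 and Ncr1, which mark B, myeloid and NK cells, all stayed at 24.5 or less in every library. Other markers on these lists were detected: Cd68, Csf1r and Adgre1 (3 of 7 myeloid genes) passed the filter, with Cd68 at 67.9 to 139 and not called between groups. Cd4 had means of 442, 234 and 116 in acute, chronic and MEK-inhibited cells and differed in each comparison (adjusted p = 0.0174, 0.0449 and 0.000119). Zbtb7b, the other CD4 T cell marker that passed, went the other way, with means of 789, 1002 and 1769. It was higher in MEK-inhibited than in chronic (0.82, adjusted p = 0.000484) and acute cells (1.17, adjusted p = 7.41e-06). Between chronic and acute cells it was not called (adjusted p = 0.0688). The summed signal of the 8 T cell and CD8 markers was 27165 to 33097 in acute, 17842 to 20064 in chronic and 26577 to 29073 in MEK-inhibited libraries. Thy1, the strongest of them, had means of 11725, 6976 and 12295, and Cd8a of 4060.5, 968.5 and 2880.5. In chronic against acute cells 6 of the 8 were lower, while Cd3d and Cd3g were not called (adjusted p = 0.856 and 0.598). B cell marker signal, of which 2 of 6 genes passed, was 541 to 573, 195 to 249.6 and 169 to 461. The 2 were Cd79a, with means of 335, 106 and 153, and Pax5, with means of 154, 72.3 and 109. Cd79a was lower in chronic (-1.69, adjusted p = 0.00225) and MEK-inhibited (-1.22, adjusted p = 0.0261) than in acute cells, and Pax5 was not called. Of 3 dendritic cell markers, Flt3 and Zbtb46 passed, and neither was called between groups. Of 3 NK cell markers 0 passed, so none was tested. Klrb1c, 1 of these, had means of 9.87, 24.1 and 40.6 in acute, chronic and MEK-inhibited cells, with all acute values below all others. The ribosomal RNA-like share of signal was 19.1% to 22.3% in acute libraries and 29.0% to 40.6% in the others. The part of these differences in the members' values was not tested, and in bulk samples fewer cells of a type and less RNA per cell cannot be told apart.

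Signal was scaled by a trimmed mean of log ratios, and differences are log2 fold changes of (scaled signal + 5) ± SE with limma's adjusted p over all 15942 genes tested. Genes were tested where 3 or more libraries reached 50 on the deposited scale, and an adjusted p under 0.05 is a call. Of the 42 members, 39 passed this filter. Nupr1, Chac1 and Vldlr reached it in 0 libraries. Of the 42, 20 overlap another annotated gene, and without knowledge of strand their values are uncertain. Cth passed through the 3 chronic libraries alone and Pycr1 through chronic and MEK-inhibited libraries alone, so both had to differ from acute cells. The 3 comparisons share libraries with each other.

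Between chronic and acute cells, 13 of the 39 members tested rose and 8 fell, a share of 53.8%, while 33.9% of all genes tested were called (18% higher, 15.9% lower). Without Cth and Pycr1 the counts were 11 and 8 of 37. The members' median difference was 0.15, against -0.02 over all genes. Between MEK-inhibited and chronic cells, 3 members were higher and 12 lower in MEK-inhibited cells, or 38.5%, against 17.6% of all genes (9.93% higher, 7.65% lower), with medians of -0.18 and 0.04. Between MEK-inhibited and acute cells, 5 members were higher and 9 lower, or 35.9%, against 25.8% of all genes (14.4% higher, 11.5% lower), with medians of -0.05 and 0.00. The members were chosen with earlier results of these data known, so these shares are a description. Leaving out single libraries moved the count between MEK-inhibited and chronic cells from 15 to 8 (without Chronic 2 or ChronicMEKi 2) or 10 (without ChronicMEKi 3). Without the filter, 12 members were called between chronic and acute cells, where 2199 of 34470 genes were higher and 1853 lower. Between MEK-inhibited and chronic cells 7 members were called, where 725 genes were higher and 912 lower.

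**Figure D1:**
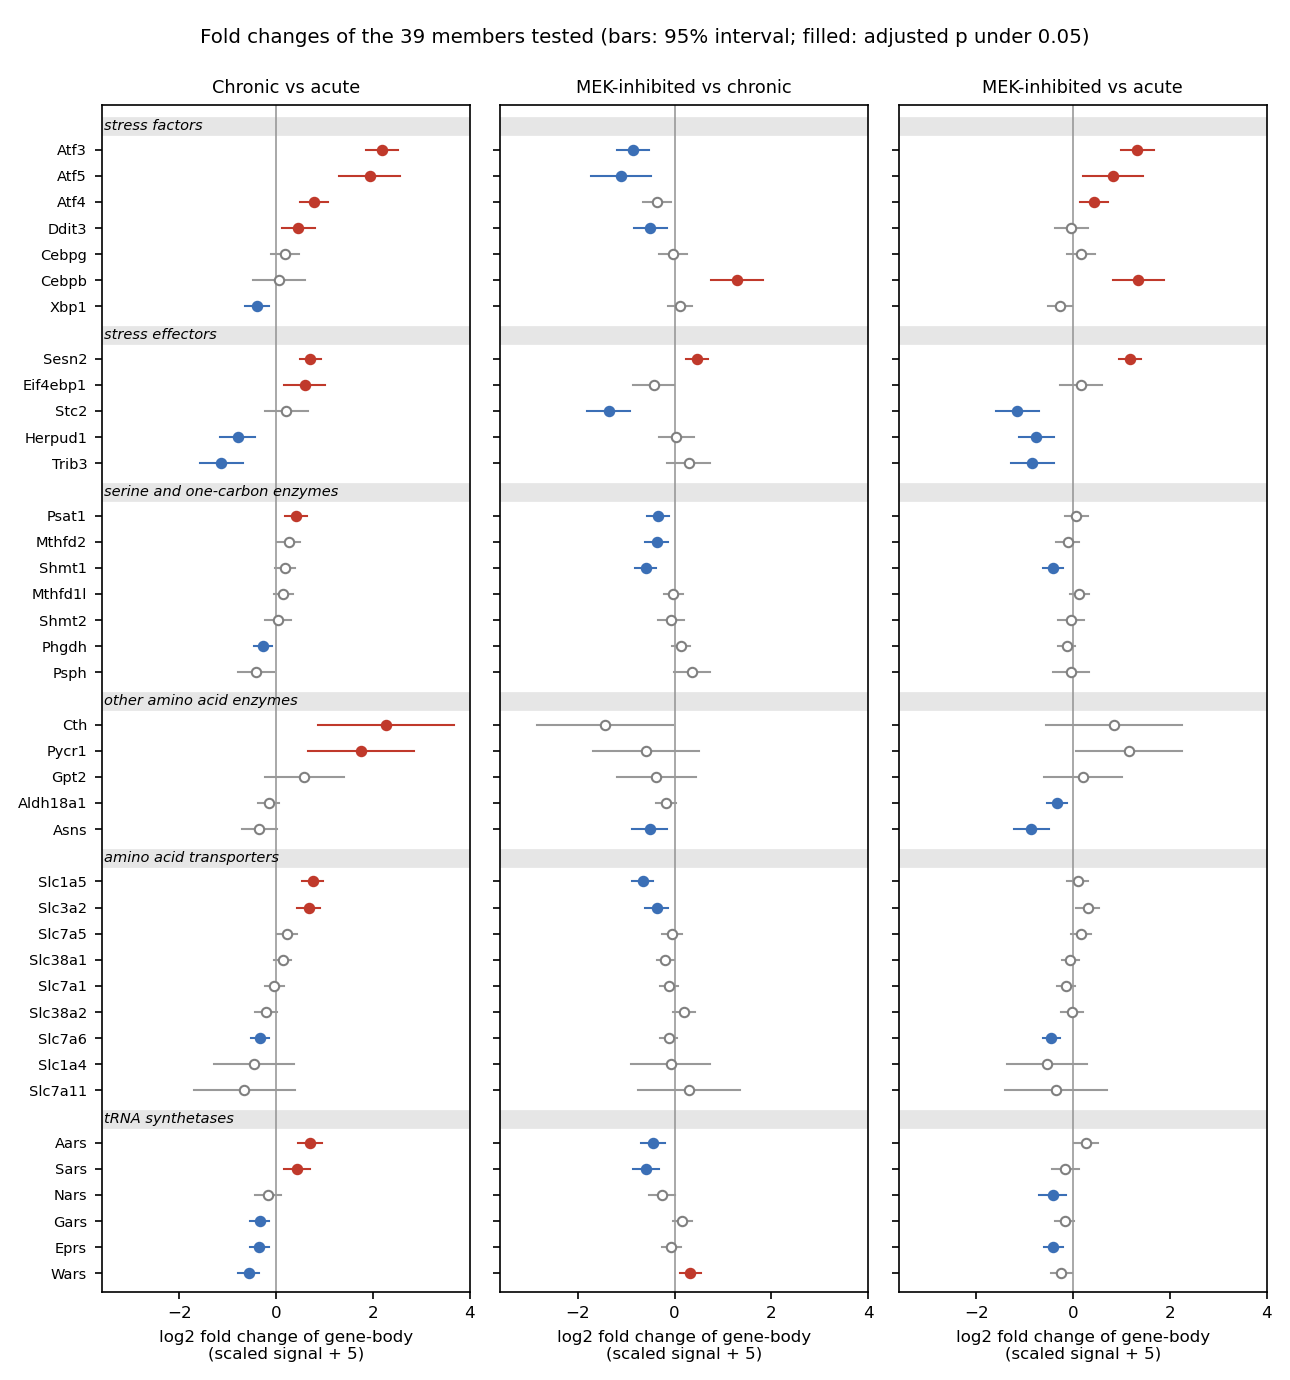
Log2 fold change of gene-body (scaled signal + 5) for the 39 members tested, grouped by role, in the 3 comparisons. Points are estimates from 3 libraries a group, bars 95% intervals, and filled points have a limma adjusted p under 0.05 (red higher, blue lower). Of the filled points, 13 are higher and 8 lower in chronic against acute, 3 and 12 in MEK-inhibited against chronic, and 5 and 9 against acute in MEK-inhibited cells.

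The direction of many modest differences rested on the scaling of the libraries. With library totals, the median of all genes moved to -0.50 between chronic and acute cells, and 4 members were higher and 17 lower, against 6.87% and 42.9% of all genes, so the share of members lower lay at the background. On the deposited scale that median was -0.48, with 4 higher and 16 lower (7.11% and 42.1% of all genes), and with totals that leave out the ribosomal RNA-like rows it was -0.17, with 9 higher and 12 lower (13.1% and 23.6%). The rises of Atf3 and Atf5 and all 8 falls were called under each scaling, as were those of Pycr1 and Cth, whose separation from acute cells the filter had set. The other 9 rises were lost in at least 1, and those of Ddit3, Psat1 and Sars turned to -0.03, -0.07 and -0.06 with library totals. Between MEK-inhibited and acute cells, library totals gave 3 higher and 19 lower (5.99% and 31.1% of all genes) with a median of all genes of -0.37. Between MEK-inhibited and chronic cells they gave 3 higher and 6 lower (11.1% and 4.65% of all genes) with a median of all genes of 0.14. The calls lost there under at least 1 scaling were those of Ddit3, Psat1, Mthfd2, Asns, Slc3a2, Aars and Wars, and against acute cells those of Atf4 and Atf5.

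**Figure D2:**
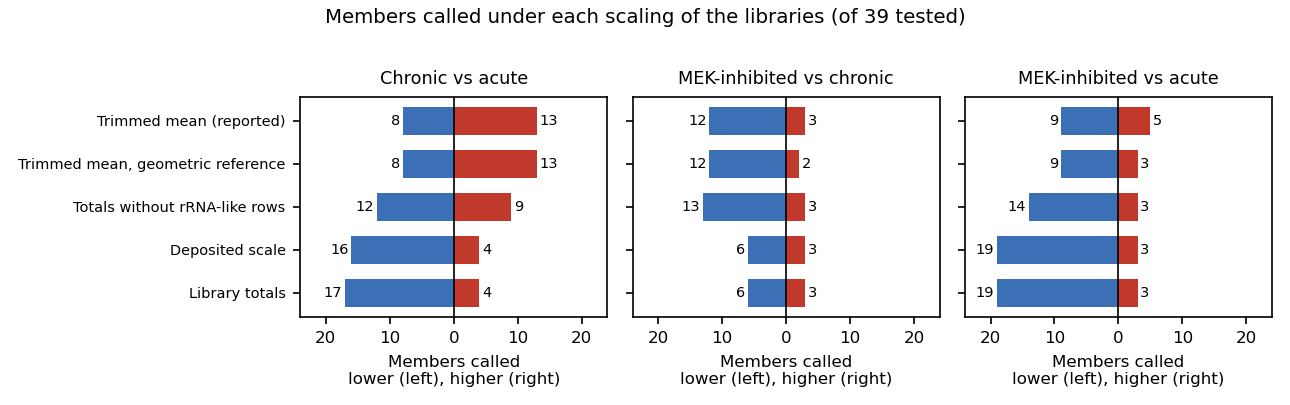
Number of the 39 members called lower (blue, left) and higher (red, right) in each comparison under 5 scalings of the libraries. Rises between chronic and acute cells go from 13 with the trimmed mean to 4 with library totals, and falls from 8 to 17.

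ATF4 binds with CEBP partners to the C/EBP-ATF response element, whose letters TGATGNAA were searched on both strands from 250 bases before to 50 after each start in RefSeq promoters (build GRCm38.p6). Of the 42 members 35 matched, and 12 of these (34.3%) held the element, against 4.51% of 27025 genes. Genes known to carry the element are among those that define ATF4 targets, so that difference describes the list. The letters TGACGTCA (the cAMP response element) and the ER stress element were found in 0 of the 35, and in 2.03% and 0.137% of genes. A match is a description of letters, not a bound site. The 6 stretches of 60 bases below are shown because they carry the same element in members that were higher in chronic than in acute cells (Pycr1, Atf3 and Aars), that were lower (Herpud1 and Gars), and in Asns, which is lower in MEK-inhibited cells. The element is in capitals, read on the gene's own strand 5′ to 3′, and it appears as its complement in 4 of them.
Pycr1: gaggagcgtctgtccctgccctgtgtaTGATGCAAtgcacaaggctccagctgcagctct
Atf3: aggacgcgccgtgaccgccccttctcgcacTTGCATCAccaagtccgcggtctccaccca
Herpud1: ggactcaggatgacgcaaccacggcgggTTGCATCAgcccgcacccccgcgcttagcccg
Aars: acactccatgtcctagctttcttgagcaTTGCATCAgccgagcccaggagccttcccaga
Asns: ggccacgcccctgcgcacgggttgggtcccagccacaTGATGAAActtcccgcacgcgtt
Gars: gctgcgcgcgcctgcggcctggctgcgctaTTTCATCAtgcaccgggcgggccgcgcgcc
They lie at chr11:120643819-120643878 (minus strand), chr1:191183414-191183473 (minus), chr8:94386289-94386348 (plus), chr8:111033702-111033761 (plus), chr6:7693210-7693269 (minus) and chr6:55037941-55038000 (plus). Counted from the start site, the capitals begin at -103 in Pycr1, -110 in Atf3, -112 in Herpud1 and Aars, -23 in Asns and -30 in Gars. The other members with the element were Nupr1, Chac1, Trib3, Vldlr, Slc7a11 and Slc1a4. Atf4 and Atf5 did not hold these letters in their windows.

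Among the stress transcription factors, Atf3, Atf5, Atf4 and Ddit3 rose in chronic against acute cells, Xbp1 fell, and Cebpb and Cebpg were not called. Atf4 (chromosome 15, 80255184 to 80257541, plus strand) gave 4015, 5520.2 and 5246 in the acute libraries, 7077, 8185 and 10411 in the chronic ones, and 6376, 6199 and 7173 in the MEK-inhibited ones. Chronic and MEK-inhibited values lay above every acute value and overlapped each other. The chronic rise was 0.79 ± 0.14 (adjusted p = 0.000297), with an adjusted p of 0.0681 under library totals. MEK-inhibited cells were 0.43 ± 0.14 above acute cells (adjusted p = 0.0312), a call lost without Acute 1, Acute 3, ChronicMEKi 1 or ChronicMEKi 3 (adjusted p = 0.0795 to 0.278) and under every other scaling. Against chronic cells the difference was -0.36 ± 0.14 (adjusted p = 0.0868). It reached 0.0219 to 0.0465 without Acute 1, Acute 2 or Chronic 1, 0.0484 without the ribosomal RNA-like rows and 0.0146 with a replicate block.

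Atf5, a related factor of the mitochondrial stress response (chromosome 7, 44812256 to 44816658, minus strand), measured 109, 234 and 138 in acute, 513, 637 and 645 in chronic, and 280.4, 193 and 383 in MEK-inhibited libraries. All chronic values lay above all others, while MEK-inhibited and acute values overlapped. It rose 3.82-fold in chronic cells (1.93 ± 0.30, adjusted p = 4.94e-05), and MEK-inhibited cells were -1.10 ± 0.30 from chronic ones (adjusted p = 0.0134; 0.0590 without Chronic 2 and 0.0731 without ChronicMEKi 2). The difference of MEK-inhibited from acute cells, 0.83 ± 0.30 (adjusted p = 0.0462), was lost without any 1 of 7 libraries, all but Acute 2 and ChronicMEKi 2 (adjusted p = 0.0523 to 0.251), and under each other scaling. Atf5 lies opposite Nup62 and Il4i1, which had means of 5534 and 5704 in acute cells. These neighbours differed by 0.73 and 0.70 in chronic against acute cells (adjusted p = 6.88e-06 and 4.67e-06) and by -0.18 and -0.14 in MEK-inhibited against chronic cells (adjusted p = 0.216 and 0.331). Use of strand is not given in the sources used here, so reads of the 3 genes cannot be told apart.

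Atf3, a stress-inducible factor of the same family (chromosome 1, 191170296 to 191218039, minus strand), measured 379.7, 288 and 434 in acute, 1582, 1628 and 1799 in chronic, and 925, 872 and 959 in MEK-inhibited libraries. The 3 groups did not overlap, with the MEK-inhibited libraries between the others. The rise in chronic cells was 4.55-fold (2.19 ± 0.16, adjusted p = 5.61e-09). MEK-inhibited cells were 0.86 lower than chronic cells on the log2 scale (-0.86 ± 0.16, adjusted p = 0.000786) and 1.33 ± 0.16 above acute cells (adjusted p = 5.51e-06). All 3 differences were called under every alternative tried. The row used for Atf3 begins at position -34706 counted from the RefSeq start whose promoter is printed above.

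Cebpb, a partner of ATF4 and a factor of inflammatory gene control (chromosome 2, 167688915 to 167690418, plus strand), measured 220.3, 429 and 250.0 in acute, 238, 312 and 359 in chronic, and 701, 642 and 903 in MEK-inhibited libraries. MEK-inhibited values lay above all others, and acute and chronic values overlapped. It was 2.46-fold higher in MEK-inhibited than in chronic cells (SE 0.25 on the log2 scale, adjusted p = 0.00113) and 2.55-fold higher than in acute cells (1.35 ± 0.25, adjusted p = 0.000566), calls made under every alternative. Tmem189, which overlaps Cebpb on the other strand, differed by 0.22 and 0.18 in the same comparisons (adjusted p = 0.235 and 0.298).

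Ddit3, which encodes the death-associated factor CHOP, had means of 578 ± 44.1, 795 ± 29.9 and 565 ± 73.2 (SD, n = 3) in acute, chronic and MEK-inhibited cells. Its rise of 0.46 in chronic cells (adjusted p = 0.0364) was lost without any 1 of the 6 acute and chronic libraries (adjusted p = 0.0537 to 0.0902), and its difference of -0.50 in MEK-inhibited against chronic cells (adjusted p = 0.0416) without 5 libraries, Chronic 1 to 3 and ChronicMEKi 2 and 3 (adjusted p = 0.0614 to 0.173). Its symbol names 2 overlapping genes, of which the row with more signal was used, and Mars lies opposite. Xbp1, the spliced factor of the unfolded protein response, fell from 7841 ± 546 to 6028 ± 999 in chronic cells (-0.39, adjusted p = 0.0155), a call lost without Acute 2, Acute 3, Chronic 1 or Chronic 2 (adjusted p = 0.0627 to 0.0836). Cebpg, the constitutive partner of ATF4, ranged from 980.0 to 1419 over the libraries and was called in 0 of 3 comparisons (adjusted p = 0.310 to 0.917).

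**Figure D3:**
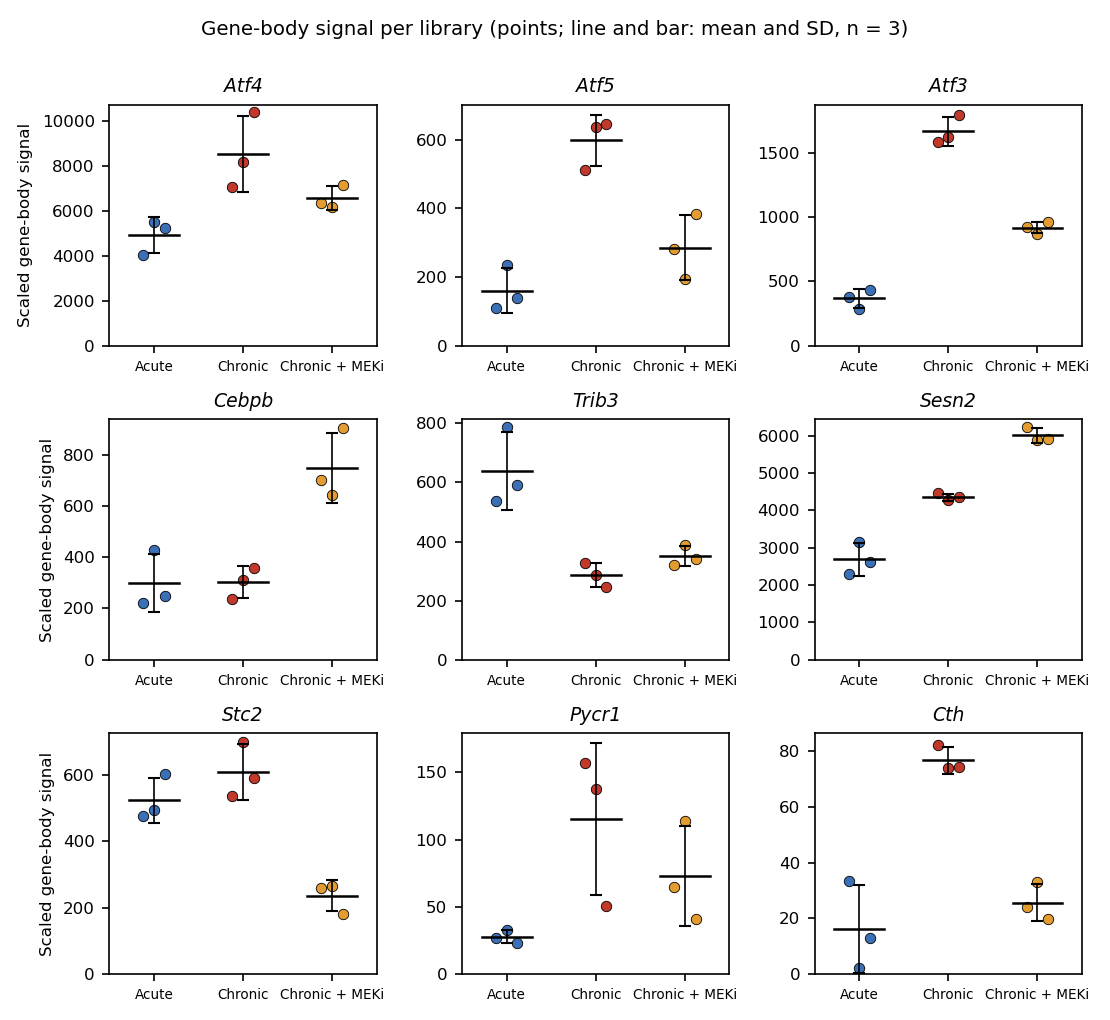
Scaled gene-body signal of Atf4 and of the 8 members called with a log2 fold change beyond 1 in a comparison, in each of the 9 libraries. Points are libraries, lines means and bars SD (n = 3), and each axis starts at 0. Sesn2 and Atf3 separate the 3 groups, Cebpb and Stc2 set the MEK-inhibited libraries apart, and Trib3 is highest in the acute ones.

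The stress effectors went both ways. In chronic against acute cells Sesn2 and Eif4ebp1 rose while Trib3 and Herpud1 fell, and in MEK-inhibited against chronic cells Sesn2 was higher and Stc2 lower. Sesn2 encodes a leucine-binding inhibitor of mTORC1 (chromosome 4, 132492032 to 132510501, minus strand). It measured 2294, 3151 and 2608 in acute, 4455, 4266 and 4346 in chronic, and 5876 to 6243 in MEK-inhibited libraries, with no overlap between groups. It was 0.71 ± 0.11 higher in chronic than in acute cells (adjusted p = 3.67e-05; 0.22, adjusted p = 0.179, under library totals), and 1.17 ± 0.11 higher in MEK-inhibited than in acute cells (adjusted p = 1.44e-07, called under every alternative). The step from chronic to MEK-inhibited cells was 0.46 ± 0.11 (adjusted p = 0.00408; 0.0567 without ChronicMEKi 1 and 0.177 without the filter). Gm12981, which lies within Sesn2 on the same strand, differed by 0.68, 0.31 and 0.99 in the comparisons of chronic with acute, MEK-inhibited with chronic, and MEK-inhibited with acute cells, and reads of the pair cannot be told apart.

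Trib3, a pseudokinase that restrains ATF4 output (chromosome 2, 152337422 to 152344032, minus strand), measured 537, 787 and 589.8 in acute, 327, 285 and 246 in chronic, and 322, 389.5 and 342 in MEK-inhibited libraries. Every acute value lay above every other value. It fell by 1.13 in chronic cells (SE 0.21, adjusted p = 0.000359), the direction opposite to that of Atf4 in the same comparison, and was -0.84 ± 0.21 in MEK-inhibited against acute cells (adjusted p = 0.00612). Herpud1, which acts in degradation of misfolded ER proteins, had means of 1973 ± 308, 1147 ± 273 and 1166 ± 218, with differences of -0.79 (adjusted p = 0.00157) and -0.76 (adjusted p = 0.00309) from acute cells. These 4 calls of Trib3 and Herpud1 were made under every alternative.

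Stc2, a secreted stress-induced glycoprotein (chromosome 11, 31357307 to 31370074, minus strand), measured 478, 494 and 603 in acute, 535, 700.3 and 592 in chronic, and 259, 266 and 182 in MEK-inhibited libraries. All MEK-inhibited values lay below all others, and acute and chronic values overlapped. It was -1.36 ± 0.21 in MEK-inhibited against chronic cells (2.57-fold lower, adjusted p = 0.000119) and -1.15 ± 0.21 against acute cells (adjusted p = 0.000448), called under every alternative. Eif4ebp1, the translation inhibitor 4E-BP1, rose by 0.59 in chronic cells (means 417 to 624, adjusted p = 0.0318), which was lost without Acute 3, Chronic 1 or Chronic 2 (adjusted p = 0.0879 to 0.157).

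Of the serine and one-carbon enzymes, Psat1 rose and Phgdh fell in chronic against acute cells, though both act in the same serine synthesis pathway, and the third enzyme, Psph, was not called. Psat1 went from 2369 ± 258 to 3161 ± 250.1 (0.42, adjusted p = 0.00587; -0.07 under library totals) and Phgdh, the first enzyme, from 5024 ± 149 to 4166 ± 181 (-0.27, adjusted p = 0.0210; 0.0544 and 0.0683 without Acute 2 or Chronic 2). Psph differed by -0.41 (adjusted p = 0.0810; -0.90, adjusted p = 0.000264, under library totals and -0.57, adjusted p = 0.0129, without the ribosomal RNA-like rows). In MEK-inhibited against chronic cells 3 of 7 were lower and 0 higher, where 7.65% of all genes were lower, and only the call of Shmt1 held in every leave-one-out fit. Shmt1, which moves a serine carbon to folate in the cytosol, had means of 3016 ± 218, 3443 ± 100.0 and 2275 ± 183, and was -0.60 against chronic cells (adjusted p = 0.000244) and -0.41 against acute cells (adjusted p = 0.00496), both under every alternative. Mthfd2, the mitochondrial folate enzyme, was -0.37 (adjusted p = 0.0302; 0.0592 to 0.105 without Chronic 1, Chronic 2, ChronicMEKi 2 or ChronicMEKi 3) and Psat1 -0.35 (adjusted p = 0.0338; 0.0558 to 0.147 without Chronic 2, ChronicMEKi 2 or ChronicMEKi 3). On the transcript row with most signal near the start, Mthfd2 was -0.20 (adjusted p = 0.435) and Psat1 -0.30 (adjusted p = 0.419). There Psat1 was 0.21 in chronic against acute cells (adjusted p = 0.482). Some of these genes overlap others. Cct6a, opposite Psph, had a mean of 3733 in acute cells, where Psph had 689. Smcr8, opposite Shmt1, differed by 0.33 in chronic against acute cells (adjusted p = 0.0472) and -0.27 in MEK-inhibited against chronic cells (adjusted p = 0.161). Gm43890, on the strand of Mthfd2, differed by 0.39 and -0.43 there (adjusted p = 0.271 and 0.309). Shmt2 and Mthfd1l, the mitochondrial partners, were called in 0 of 3 comparisons, with differences between -0.08 and 0.15. Without Chronic 3, Mthfd1l was 0.26 higher in chronic than in acute cells (adjusted p = 0.00445), and under library totals it was -0.34 and Shmt2 -0.45 (adjusted p = 0.0446 and 0.0116).

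Among the other amino acid enzymes, Pycr1 and Cth were higher in chronic than in acute cells at very low signal, and Asns was lower in MEK-inhibited cells. Pycr1, the last step of proline synthesis (chromosome 11, 120635712 to 120643769, minus strand), measured 26.9, 32.8 and 23.1 in acute, 157, 138 and 50.6 in chronic, and 64.9, 114 and 40.6 in MEK-inhibited libraries. The chronic library with 50.6 lay within the MEK-inhibited range, and all acute values were lower. The chronic difference from acute was 1.75 ± 0.52 (adjusted p = 0.0141; 0.0814 without Chronic 1 and 0.0701 without Chronic 2). Since Pycr1 passed the filter through chronic and MEK-inhibited libraries alone, this difference is a description. Cth, which makes cysteine from cystathionine (chromosome 3, 157894248 to 157925077, minus strand), measured 33.3, 1.97 and 12.9 in acute, 82.3, 73.8 and 74.2 in chronic, and 19.8 to 33.1 in MEK-inhibited libraries. Chronic values lay above all others, which the filter had set for Cth, so the difference from acute of 2.28 ± 0.67 (adjusted p = 0.0126) is a description. With no filter on any gene it was 2.31 (adjusted p = 0.0117), and without a chronic library Cth no longer passed the filter. For Pycr1 the difference with no filter was 1.76 (adjusted p = 0.0250).

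Asns, asparagine synthetase and a classical ATF4 target, was not called between chronic and acute cells. Its means were 984 ± 5.30, 789 ± 176 and 542 ± 46.4, and the difference of chronic from acute cells was -0.34 (95% interval -0.70 to 0.02, adjusted p = 0.137), or -0.83 (adjusted p = 0.000562) under library totals. MEK-inhibited cells were -0.86 against acute cells (adjusted p = 0.000998, under every alternative) and -0.52 against chronic cells (adjusted p = 0.0449). The latter call was lost without Chronic 2, Chronic 3, ChronicMEKi 2 or ChronicMEKi 3 (adjusted p = 0.0933 to 0.175). Aldh18a1, the first step of proline synthesis, was -0.33 in MEK-inhibited against acute cells (adjusted p = 0.0219; 0.115 without ChronicMEKi 3). Gpt2, a mitochondrial alanine transaminase, had the widest intervals of the group after Cth and Pycr1 and was not called.

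Of the 9 amino acid transporters, Slc1a5 and Slc3a2 rose in chronic against acute cells and Slc7a6 fell, while both risers were lower in MEK-inhibited than in chronic cells. Slc1a5, the glutamine carrier ASCT2, had means of 6111 ± 677, 10278 ± 625 and 6533 ± 702, with no overlap of the chronic libraries with the others. It was 0.75 higher in chronic than in acute cells (adjusted p = 1.11e-05; 0.26, adjusted p = 0.115, under library totals) and -0.66 in MEK-inhibited against chronic cells (adjusted p = 0.000112, under every alternative). Slc3a2, the heavy chain CD98 that carries Slc7a5 and Slc7a6 to the membrane, went from 3012 ± 252 to 4833 ± 669 (0.67, adjusted p = 0.000111; 0.18, adjusted p = 0.236, under library totals). In MEK-inhibited against chronic cells it was -0.37 (adjusted p = 0.0266; 0.0823 to 0.110 without Chronic 2, Chronic 3 or ChronicMEKi 2).

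Of the light chains Slc7a5 and Slc7a6, which pair with Slc3a2, Slc7a5 was not called and Slc7a6 was lower. Slc7a5, the leucine carrier LAT1, differed by 0.22 in chronic against acute cells (adjusted p = 0.0979; 0.33, adjusted p = 0.00793, without Acute 2) and lies opposite Gm20388, which differed by 0.02 (adjusted p = 0.917). Slc7a6, the y+LAT2 carrier, was -0.33 in chronic (adjusted p = 0.00576; 0.103 without the filter) and -0.45 in MEK-inhibited cells (adjusted p = 0.000662) against acute cells. The arginine carrier Slc7a1 and the neutral amino acid carriers Slc38a1 and Slc38a2 were not called, with differences between -0.21 and 0.20. Under library totals all 3 were lower in chronic than in acute cells, Slc38a2 by -0.70 (adjusted p = 0.000103), Slc7a1 by -0.52 (adjusted p = 0.00266) and Slc38a1 by -0.36 (adjusted p = 0.0213). Slc38a2 was also called without the ribosomal RNA-like rows (-0.37, adjusted p = 0.0120) and without Chronic 3 (-0.32, adjusted p = 0.0140; 0.31, adjusted p = 0.0303, in MEK-inhibited against chronic cells). Slc38a1 was called between MEK-inhibited and chronic cells without Acute 2 (-0.25, adjusted p = 0.0253). The cystine carrier Slc7a11 and the serine carrier Slc1a4 were weak, with values from 78.9 to 307 and from 72.9 to 187, and their intervals between chronic and acute cells ran from -1.70 to 0.40 and from -1.27 to 0.38.

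Of the 6 tRNA synthetases, Aars and Sars rose in chronic against acute cells, Wars, Eprs and Gars fell, and Nars was not called. Aars, for alanine, had means of 2037 ± 245, 3318 ± 368 and 2441 ± 274, a rise of 0.70 (adjusted p = 0.000146; 0.21, adjusted p = 0.176, under library totals). Sars, for serine, had means of 1738 ± 244, 2334 ± 129.9 and 1558 ± 243, a difference of 0.43 (adjusted p = 0.0152; 0.0552 and 0.0827 without Acute 3 or Acute 1) that was -0.06 under library totals. Both were lower in MEK-inhibited than in chronic cells, by -0.44 for Aars (adjusted p = 0.0138; 0.0552 and 0.0667 without Chronic 3 or ChronicMEKi 2) and -0.59 for Sars (adjusted p = 0.00314, under every alternative).

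Wars, for tryptophan and also an interferon-induced gene, went from 4049.7 ± 429 to 2731 ± 236 in chronic cells (-0.57, adjusted p = 0.000286, under every alternative). Its difference of 0.33 in MEK-inhibited against chronic cells (adjusted p = 0.0344) was lost without any 1 of 7 libraries, all but Chronic 3 and ChronicMEKi 2 (adjusted p = 0.0649 to 0.248). Eprs, for glutamate and proline, was -0.34 in chronic cells (adjusted p = 0.00774; 0.078 without the filter) and -0.41 in MEK-inhibited ones (adjusted p = 0.00297), both relative to acute cells. Gars, for glycine, was -0.34 in chronic against acute cells (adjusted p = 0.00994; 0.103 without the filter). On its transcript row with most signal near the start, Gars was -0.23 (adjusted p = 0.405). Nars, for asparagine, was -0.42 in MEK-inhibited against acute cells (adjusted p = 0.0205; 0.0663 to 0.0690 without Acute 1 or ChronicMEKi 3).

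The 14 other cytosolic synthetases gave 1 higher (Hars, 0.47, adjusted p = 0.00425, but -0.02 under library totals) and 2 lower (Iars and Tars, both -0.46, adjusted p = 0.00110 and 0.0449) in chronic against acute cells. That is 21.4% of the list, against 33.9% of all genes. Library totals gave 0 higher and 12 lower there, against 6.87% and 42.9% of all genes. In MEK-inhibited against acute cells 8 of the 14 were lower and 0 higher, where 11.5% of all genes were lower and 14.4% higher (10 and 0 under library totals, where 31.1% of all genes were lower), led by Cars (-0.67, adjusted p = 0.0206; 0.0871 without Acute 1), Iars (-0.62, adjusted p = 9.17e-05) and Yars (-0.53, adjusted p = 0.00201). Tars was lost in 6 leave-one-out fits between chronic and acute cells (adjusted p = 0.0560 to 0.262). At an unadjusted p under 0.05, 0 of the 14 were higher in MEK-inhibited than in acute cells and 8 lower.

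**Figure D4:**
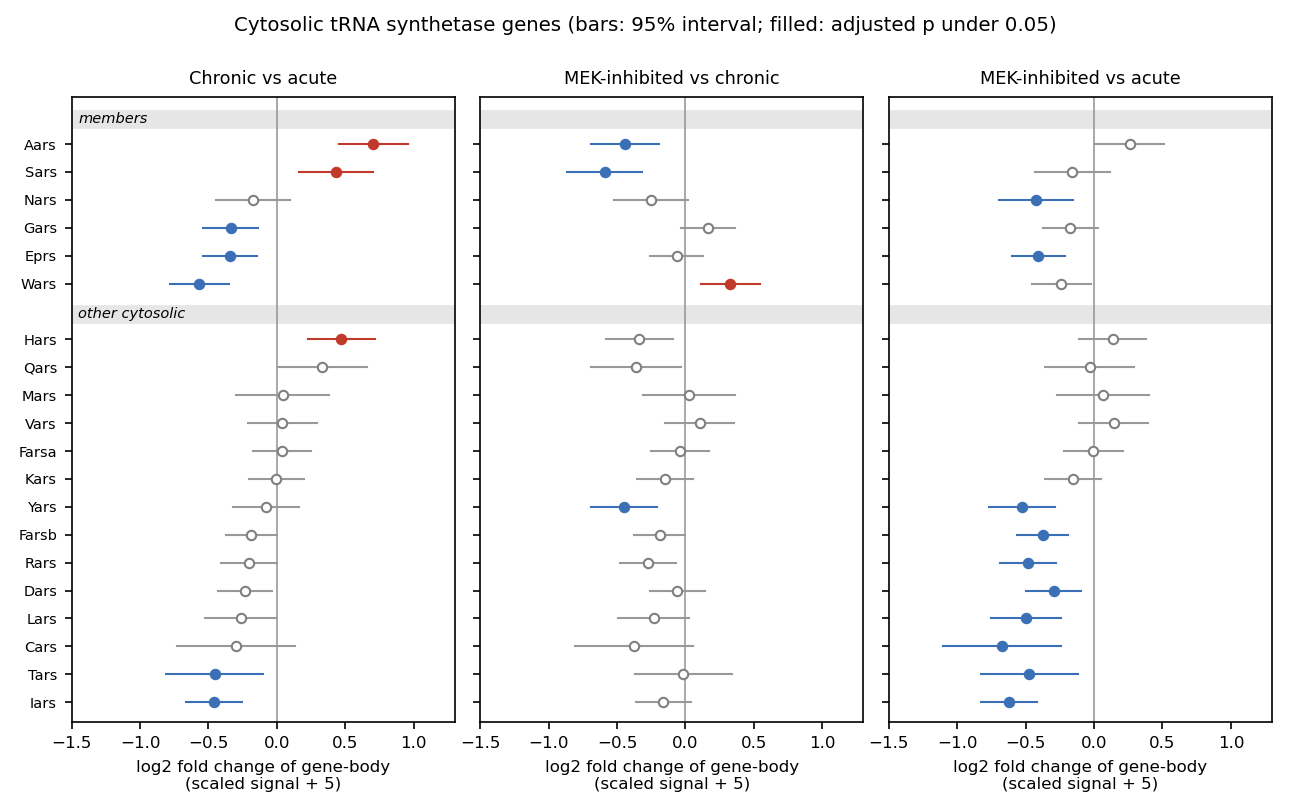
Log2 fold change of gene-body (scaled signal + 5) for the 6 member synthetases and the 14 other cytosolic ones in the 3 comparisons. Points are estimates from 3 libraries a group, bars 95% intervals, filled points limma adjusted p under 0.05. In MEK-inhibited against acute cells, 2 of the 6 and 8 of the 14 are filled and lower, and none is filled and higher.

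Pause-region signal, read here as the stretch near the start, was tested for 31 members. In chronic against acute cells 2 rose and 1 fell (9.68%, against 10.7% of all genes, 5.37% higher and 5.35% lower), in MEK-inhibited against chronic cells 1 was higher (3.23%, against 3%, 1.56% higher and 1.43% lower), and in MEK-inhibited against acute cells 1 was higher (3.23%, against 5.95%, 3.44% higher and 2.51% lower). These shares lie near the background. The count between chronic and acute cells was 9 under library totals and 1 on the deposited scale. The share of all genes called in the pause region under those scalings was not computed, so these counts cannot be set against a background. It was 1 without Acute 1 or any 1 chronic library. Atf5 gave 573, 661 and 641 in acute, 818, 1156 and 987 in chronic and 641 to 798 in MEK-inhibited libraries, a chronic difference of 0.64 ± 0.19 (adjusted p = 0.0227). Sesn2 gave 170.4 to 245 in acute, 318 to 332 in chronic and 475 to 523 in MEK-inhibited libraries, without overlap, and differed by 0.66 (adjusted p = 0.0439) and 1.28 (adjusted p = 0.000248) from acute cells. Cebpb gave 290.5 to 379, 174 to 226 and 465 to 495, which was -0.79 in chronic against acute cells (adjusted p = 0.0158) and 1.31 in MEK-inhibited against chronic cells (adjusted p = 0.000249). In chronic cells its start-proximal signal was thus lower than in acute cells, where its gene-body difference was 0.06 (adjusted p = 0.890). The log2 ratio of the 2 signals of Cebpb was not called by limma in that comparison (-0.85 ± 0.34, adjusted p = 0.446).

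The ratio of pause-region to gene-body signal was called in 0 of the 31 members and 0 of 7413 genes in each comparison by limma. At an unadjusted p under 0.05 there were 4, 0 and 2 members and 749, 394 and 591 genes in the order chronic to acute, MEK-inhibited to chronic, MEK-inhibited to acute. The pause-region values of Atf3 were listed at 0 in every library for the row used.

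Upstream of ATF4, the 18 genes of the eIF2 kinases, eIF2 itself, its exchange factor and its phosphatase gave 3 higher and 1 lower in chronic against acute cells, 3 and 1 in MEK-inhibited against chronic cells, and 1 and 2 in MEK-inhibited against acute cells. The shares called were 22.2%, 22.2% and 16.7%, beside 33.9%, 17.6% and 25.8% of all genes. Library totals gave 0 and 11, 3 and 0, and 1 and 11 in the same order. Of all genes, 6.87% and 42.9%, 11.1% and 4.65%, and 5.99% and 31.1% were then higher and lower. The geometric mean reference gave 1 and 1 between MEK-inhibited and chronic cells, against 8.54% and 8.15% of all genes. The ER stress kinase PERK, encoded by Eif2ak3, led the list in both comparisons with MEK inhibition. It measured 3501 to 3761 in acute, 3561 to 4096 in chronic and 9044 to 9507 in MEK-inhibited libraries. The MEK-inhibited values lay above all others, with differences of 1.29 ± 0.09 from chronic (adjusted p = 5.33e-09) and 1.36 ± 0.09 from acute cells (adjusted p = 2.74e-09), in the same direction under every scaling. Ppp1r15a, the stress-induced phosphatase subunit GADD34 and an ATF4 pathway target, rose in chronic cells (0.79, adjusted p = 0.0133; 0.0622 and 0.0624 without Chronic 2 or Acute 1). It was -0.83 in MEK-inhibited against chronic cells (adjusted p = 0.0183; 0.0855 without Chronic 2 and 0.0712 without ChronicMEKi 1).

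The ER chaperones and unfolded protein response genes, of which 17 of 18 were tested, gave 7 higher and 0 lower in chronic against acute cells, against 18% and 15.9% of all genes, but 1 higher and 7 lower under library totals, where 42.9% of all genes were lower. In MEK-inhibited against chronic cells 6 were lower and 0 higher, where 7.65% of all genes were lower (4 and 0 under library totals, where 4.65% were), and in MEK-inhibited against acute cells 0 were called in either direction by limma (3 at an unadjusted p under 0.05). Ern1, the stress sensor IRE1, measured 1504 to 1804 in acute, 2762 to 3357 in chronic and 1860.2 to 2146 in MEK-inhibited libraries without overlap, with differences of 0.92 (adjusted p = 4.40e-06) and -0.66 (adjusted p = 0.000370). Dnajb9, an ER co-chaperone, differed by 0.61 (adjusted p = 0.0197; 0.0569 to 0.109 without Acute 1, Acute 3, Chronic 2 or Chronic 3) and -0.80 (adjusted p = 0.00628) in the same comparisons. Xbp1, the substrate of IRE1, fell between chronic and acute cells, as given above.

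Other folate, glutamine and aspartate enzymes gave 5 higher and 0 lower of 16 in chronic against acute cells (3 and 6 under library totals). This share of 31.2% lies near the 33.9% of all genes, with 18% of all genes higher. The 5 include Tyms (4.01-fold, adjusted p = 5.39e-10) and Gls2 (log2 1.61, adjusted p = 0.00133). Tyms makes thymidylate for DNA synthesis and was also higher in MEK-inhibited than in acute cells (log2 1.69, adjusted p = 1.22e-08). Of 15 other amino acid transporters tested, 4 were higher and 1 lower in chronic against acute cells (1 and 4 under library totals), a share of 33.3% that lies at the background of 33.9%, led by the glycine carrier Slc6a9 (1.89, adjusted p = 0.000165), with Slc43a2 lower (-0.67, adjusted p = 0.00132). The 17 mitochondrial synthetases gave 2 higher and 0 lower (1 and 7 under library totals), a share of 11.8% that lies below the 33.9% of all genes, led by Cars2 (0.96, adjusted p = 3.70e-06). Under library totals 6.87% of all genes were higher and 42.9% lower in chronic against acute cells.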

How the data were processed

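The authors deposited 2 tables of signal per transcript, whose names were read as gene body and pause region. Per the submitters' processing notes, tools included FastQC 0.12.0, Trim Galore 0.6.10, STAR 2.7.0a, SAMtools 1.19.2, deepTools and R 4.1.2, with build mm10. Region limits, use of strand and annotation are not given in the sources used here. Low values were whole multiples of a step of 0.764 to 1.06 that differed between libraries, which points to a single factor per library. The signal was therefore not treated as counts, and depth in reads and counting error are unknown.

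Each table's 118482 rows were matched to GENCODE M21 (117346 with version, 383 without, 753 unmatched), on chromosomes 1 to 19. Each gene was represented by its row of highest mean gene-body signal. Of the 42 members, 20 overlap another annotated gene, which makes their values uncertain. Libraries were scaled with a trimmed mean of log ratios, unweighted (30% and 5% trimmed), and tested as log2(signal + 5) in 1 limma model over 9 libraries (limma 3.58.1, R 4.3.3), with trend and robust moderation and Benjamini-Hochberg adjustment. Fold changes of weak genes are understated. The procedure was tested on simulated data in which few genes changed, in equal numbers up and down. A shift of many genes in 1 direction was not simulated, so that test does not bear on the choice of scaling.

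Members and lists were chosen with earlier results of these data known. Per-library values are given for Atf4 and for members called with a log2 fold change beyond 1, and up to 3 called genes per direction for context lists. Some genes of the context and marker lists are not reported here by name. Alternatives were other scalings, pseudocounts, filters, moderation, transcript row, a replicate block and leaving out each library. Scaling against the geometric mean was chosen after seeing the data. Same-numbered libraries did not deviate together (correlations -0.53 to 0.10), so the labels' numbers were not taken as pairs. Differently numbered libraries of 2 groups gave correlations of -0.37 to 0.51, the highest between Acute 2 and ChronicMEKi 1; their source was not tested.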

Additional observations from a re-analysis of the deposited data

How the results depend on the processing

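Scaling changed the most results. In chronic against acute cells, library totals gave 4 members higher, 17 lower and 9 called in the pause region, and the deposited scale 4, 16 and 1. In MEK-inhibited against chronic cells both gave 9 called and 6 lower, and against acute cells 22 called, 3 higher and 19 lower, with 2 in the pause region under library totals. Leaving the ribosomal RNA-like rows out of the totals gave 3 members higher and 14 lower in that comparison, against 9.86% and 19.8% of all genes. The geometric mean reference, chosen after seeing the data, gave 3 higher there, against 13.1% of all genes. On the deposited scale 12.4% of all genes were higher and 4.52% lower between MEK-inhibited and chronic cells. Between MEK-inhibited and acute cells these were 6.42% and 28.5%. The cause of these moves was not tested. For the pause-region counts under the alternatives, the share of all genes called was not computed.

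Differences between chronic and acute cells that turned negative, under library totals and on the deposited scale, were -0.072 and -0.055 for Psat1, -0.029 and -0.013 for Ddit3, -0.058 and -0.041 for Sars, -0.45 and -0.43 for Shmt2, -0.36 and -0.34 for Slc38a1, -0.47 and -0.45 for Ears2, -0.43 and -0.41 for Eif2ak3, -0.13 and -0.11 for Eif2ak4, -0.017 and -0.000605 for Hars, -0.060 and -0.043 for Hspa5, -0.44 and -0.42 for Iars2, and -0.20 and -0.19 for Slc6a6. Mthfd1l was -0.34 under library totals. Against acute cells, those of MEK-inhibited cells were -0.36 and -0.32 for Ppp1cc, -0.062 and -0.021 for Slc25a13, and -0.041 and -0.000507 for Slc38a10.

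Without a filter, 34470 genes were tested. Of these, 2199 were higher and 1853 lower in chronic against acute cells, and 725 and 912 in MEK-inhibited against chronic cells. Against acute cells 1305 were higher in MEK-inhibited cells. Of the members, 12 were called (3 lower) in chronic against acute cells and 0 in the pause region, 7 (1 higher, 6 lower) in MEK-inhibited against chronic cells, and 3 were higher against acute cells. With no trend in the variance these were 0 in the pause region, 9 (7 lower) and 3 higher, and the fall of Atf5 between MEK-inhibited and chronic cells was lost. Of 15942 genes, 1181 were then higher and 952 lower between MEK-inhibited and chronic cells, and 1939 higher in MEK-inhibited than in acute cells. A filter of 200 and the row of most pause-region signal gave 2 and 3 members in the pause region between MEK-inhibited and chronic cells. On that row 5 gene-body calls were lost and 1 gained. Lost were those of Psat1, Gars and Sars between chronic and acute cells, and of Psat1 and Mthfd2 between MEK-inhibited and chronic cells. Aldh18a1 was gained between chronic and acute cells (-0.68, adjusted p = 0.00803). Pause-region signal in place of gene-body signal gave 3, 1 and 1 members called.

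Leaving out single libraries gave 15 to 22 members called in chronic against acute cells (9 to 13 higher, 6 to 10 lower, median 0.10 to 0.19), 8 to 16 in MEK-inhibited against chronic cells (1 to 4 higher, 5 to 14 lower, median -0.26 to -0.14) and 10 to 15 in MEK-inhibited against acute cells (3 to 5 higher, 7 to 10 lower, median -0.18 to 0.03). In the pause region it gave 1 to 4, 1 and 1, and for pausing 0. With a replicate block, 0 member calls in the gene body were lost and 3 gained: Atf4 between MEK-inhibited and chronic cells (adjusted p = 0.0146), and Slc3a2 and Xbp1 between MEK-inhibited and acute cells. Depth in reads is unknown, so counting error could not be given.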
